A study of Mus musculus with 2 samples.

Results

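Bcl11b encodes a zinc-finger transcription factor of T cells, and its gene (ENSMUSG00000048251.15) lies on the minus strand of mouse chromosome 12 at chr12:107910403-108003602 (mm10, GENCODE M21). Every DNase I peak and footprint was taken from the 93.2 kb gene body, from the 100 kb upstream of its outermost transcription start site (TSS), and from 1 Mb downstream of its 3' end, a window of 1193.2 kb at chr12:106910403-108103602. The window held 146 of the 97051 peaks of replicate 1 and 160 of the 108010 peaks of replicate 2. It also held 425 of the 276400 footprints of replicate 1 and 462 of the 318156 footprints of replicate 2. Merging overlapping peaks of both replicates gave 181 regions of 127957 over all chromosomes, and 100 of these 181 were found in both replicates, as were 68724 of the 127957. Regions are numbered below from 1 at the far downstream edge of the window to 181 upstream of the gene.

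The data are DNase-seq of thymus from female B6CASTF1/J mice, an F1 hybrid of the strains C57BL/6J and CAST/EiJ, aged 14 days. DNase-seq maps open chromatin by the ends that DNase I leaves in nuclei. Both libraries belong to 1 group without treatment or mutation, and the series has no control group, so the values below describe this tissue and no contrast. The labels call them biological replicates 1 and 2 from animals with separate numbers under 1 donor identifier. The sources used here do not give the read depth. The strength of a peak is the authors' own deposited value, whose scaling rule the sources used here do not give. In whole tissue, fewer cells with an open site and less opening per cell cannot be told apart.

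BCL11B acts as T cell precursors commit to the T lineage, and it restrains natural killer and innate lymphoid programs. Work in mice has shown that its gene is switched on under NOTCH signals with the help of GATA3, TCF-1 and RUNX1. A distal enhancer in the gene desert downstream of the gene is known to take part, and a noncoding RNA named ThymoD is transcribed there. Which of the peaks described here match the published elements was not examined.

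The 7 strongest regions found in both replicates, by the mean of their strength percentiles, are shown by sequence because they include the promoter and the leading sites of the gene body and the desert. The letters are the GRCm38.p6 reference (mm10) and not the alleles of the animals. They run 5′ to 3′ on the plus strand of chromosome 12, apart from the promoter peak, which is on the minus strand on which Bcl11b is transcribed. A region of more than 300 bp, and the promoter region, is shown by its strongest replicate 1 peak, up to 300 bases. Capitals mark bases that lay in footprints of both replicates, a footprint being a short stretch within open DNA that is cut less than its flanks.
Region 24 in the desert, chr12:107086341-107086540: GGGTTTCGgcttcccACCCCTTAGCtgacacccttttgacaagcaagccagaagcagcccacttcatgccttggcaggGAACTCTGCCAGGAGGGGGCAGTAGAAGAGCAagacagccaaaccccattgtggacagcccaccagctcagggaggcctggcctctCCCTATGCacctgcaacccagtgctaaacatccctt
Region 66 at the start of the noncoding gene Gm16084, chr12:107160161-107160360: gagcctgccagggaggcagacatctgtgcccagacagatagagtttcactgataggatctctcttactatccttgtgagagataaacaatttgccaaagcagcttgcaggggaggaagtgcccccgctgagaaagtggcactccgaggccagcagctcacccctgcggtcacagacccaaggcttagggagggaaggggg
Region 174 at the Bcl11b promoter, chr12:108004021-108004280: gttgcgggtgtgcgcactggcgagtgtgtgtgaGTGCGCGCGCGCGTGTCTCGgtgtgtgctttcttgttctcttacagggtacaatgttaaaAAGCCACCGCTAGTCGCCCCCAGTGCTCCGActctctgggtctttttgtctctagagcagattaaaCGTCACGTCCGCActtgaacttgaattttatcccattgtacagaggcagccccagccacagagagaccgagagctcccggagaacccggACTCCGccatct
Region 167 in intron 1, chr12:107998841-107999040: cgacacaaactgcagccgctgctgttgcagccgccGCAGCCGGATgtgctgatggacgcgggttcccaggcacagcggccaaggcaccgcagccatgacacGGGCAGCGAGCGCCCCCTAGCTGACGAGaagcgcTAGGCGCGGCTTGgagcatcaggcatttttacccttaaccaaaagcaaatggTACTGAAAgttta
Region 38 in the desert, chr12:107124281-107124560: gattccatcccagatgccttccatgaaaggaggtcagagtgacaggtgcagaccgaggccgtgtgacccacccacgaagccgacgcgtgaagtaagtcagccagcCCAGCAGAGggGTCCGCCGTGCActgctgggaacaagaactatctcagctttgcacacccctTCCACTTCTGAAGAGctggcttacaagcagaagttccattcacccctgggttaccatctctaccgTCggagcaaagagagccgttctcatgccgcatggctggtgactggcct
Region 152 in intron 3, chr12:107928081-107928320: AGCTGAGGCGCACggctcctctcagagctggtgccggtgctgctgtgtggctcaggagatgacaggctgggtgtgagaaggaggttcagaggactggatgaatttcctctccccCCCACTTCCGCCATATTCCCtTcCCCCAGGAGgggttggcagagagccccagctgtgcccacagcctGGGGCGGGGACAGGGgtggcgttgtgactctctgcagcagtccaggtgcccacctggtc
Region 52 in the desert, chr12:107139081-107139380: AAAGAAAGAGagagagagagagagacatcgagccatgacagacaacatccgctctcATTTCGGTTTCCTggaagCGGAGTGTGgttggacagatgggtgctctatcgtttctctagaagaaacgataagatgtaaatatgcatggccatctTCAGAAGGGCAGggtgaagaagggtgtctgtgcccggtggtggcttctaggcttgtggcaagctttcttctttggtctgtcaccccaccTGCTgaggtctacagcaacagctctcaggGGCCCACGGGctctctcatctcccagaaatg

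These sequences differ in how much of the footprint pattern both animals had. In region 24, 58 of 200 bases were in footprints of both replicates, and the longest such run was 32 bases. In region 167, 59 of 200 bases were, with a longest run of 28 bases. The promoter peak had 70 of 260 bases in 4 runs, the longest 31 bases. The peak in region 66 had 0 of its 200 bases in footprints of both replicates, although it overlapped 6 footprints in replicate 1 and 1 in replicate 2.

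Open chromatin was dense around Bcl11b. The window had 12.2 peaks per 100 kb in replicate 1 and 13.4 in replicate 2, a mean of 12.8 ± 0.83 (SD, n = 2). Over chromosomes 1 to 19, X and Y there were 3.67 peaks per 100 kb in replicate 1 and 4.08 in replicate 2. Chromosome 12 as a whole had 3.48 and 3.89. The median strength was 1.08 in the window against 0.795 over all peaks in replicate 1, and 0.723 against 0.645 in replicate 2. Above the median of all peaks lay 92 of the 146 window peaks of replicate 1 and 94 of the 160 of replicate 2. The top 10% of all peaks held 12 window peaks of replicate 1 (8.22%) and 4 of replicate 2 (2.5%), and the top 25% held 42 (28.8%) and 34 (21.2%).

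The peaks were spread unevenly along the window. The upstream 100 kb held 8 peaks in each replicate, and the gene body held 20 in replicate 1 and 25 in replicate 2. Downstream, counted in bins of 100 kb from the 3' end outward, the first bin held 6 and 5 peaks and the second 22 and 16. Bins 3 to 7 held between 2 and 11 peaks per bin, and bin 3 was the sparsest of the desert with 2 and 4. The eighth bin, from 700 to 800 kb beyond the gene, held 34 peaks in replicate 1 and 47 in replicate 2. Bin 9 held 12 and 16 peaks and bin 10 held 8 and 9.

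**Figure D1:**
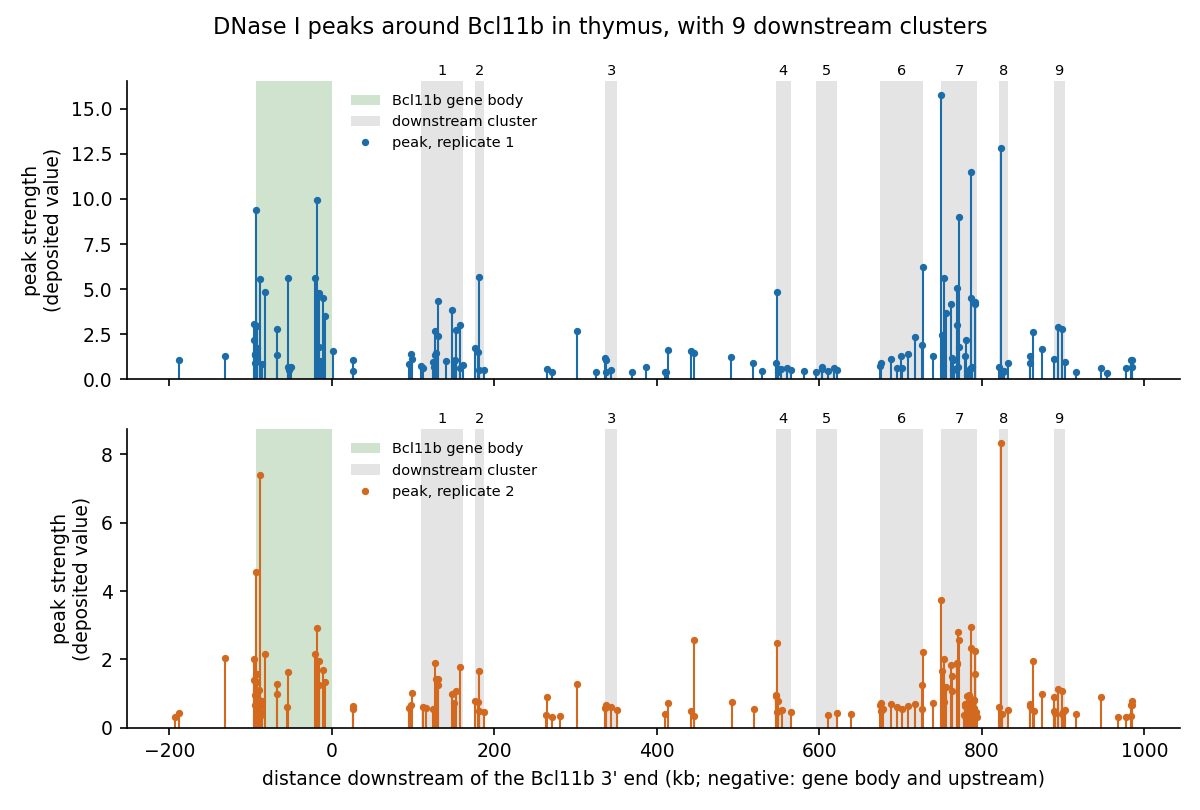
Strength of each peak (deposited value, linear axis, replicate 1 above and replicate 2 below) against its distance downstream of the Bcl11b 3' end in kb, with the gene body in green and the 9 downstream clusters in grey. The 7 tallest peaks of each replicate stand at the gene and beyond 700 kb downstream, with region 24 at 12.8 and 8.31.

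The eighth bin was rare by genome standards. Among 25626 tiles of 100 kb over all chromosomes, 67 had at least 34 peaks in replicate 1, which is 0.261%, and 13 had at least 47 in replicate 2, which is 0.0507%. The median tile held 1 peak in replicate 1 and 2 in replicate 2. The gene body's density of 21.5 and 26.8 peaks per 100 kb was reached by 1.64% and 0.800% of tiles. By summed strength the eighth bin held 34.3% of the window's total in replicate 1 and 30.8% in replicate 2, and the gene body held 20.8% and 21.5%. The upstream 100 kb held 7.03% and 7.30%.

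**Figure D2:**
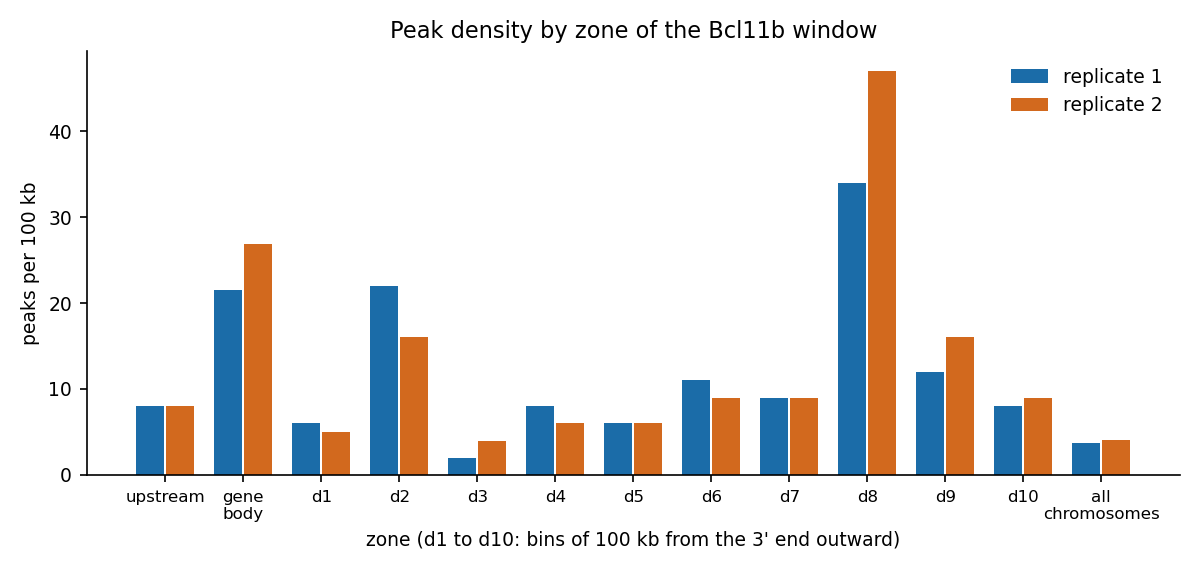
Peaks per 100 kb (bars from 0, one per replicate) in the upstream zone, the gene body and the 10 downstream bins of 100 kb, with all chromosomes at the right. The eighth bin reaches 34 and 47 peaks, against 3.67 and 4.08 per 100 kb over all chromosomes.

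At the Bcl11b promoter, the main open site was not on the annotated GENCODE start but 339 bp upstream of it. Region 174, the third strongest region of the window, measured 9.40 in replicate 1 and 4.55 in replicate 2. It spans position 108004145, the outermost start that RefSeq predicts for the gene, whereas the outermost GENCODE TSS is 108003602 and the curated RefSeq start is 108003414. The printed promoter peak therefore reaches across the predicted start. Over the GENCODE TSS itself, region 173 (chr12:108003504-108003700) reached 1.39 in replicate 1 and was absent from the peaks of replicate 2, and region 172 in exon 1 had 1.18 and 1.35. Region 173 still held a base that replicate 2 listed with a false discovery rate under 0.05. It also held 1 footprint of replicate 2, which overlapped 1 of replicate 1. Of the 7 footprints in region 174 in each replicate, 5 overlapped a footprint of the other replicate.

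Among 21701 protein-coding genes, the Bcl11b promoter was open but not among the strongest. It ranked 4409 of 13114 genes with a promoter peak in replicate 1 and 5526 of 13329 in replicate 2. That is above 66.4% and 58.6% of the open promoters, whose medians were 5.80 and 3.74. Farther upstream, regions 177 and 178 (chr12:108005941-108006160 and chr12:108006161-108006520) lay 2339 and 2559 bp from the outer TSS. Region 178 had strengths of 3.05 and 2.02, and region 177 had 2.19 and 1.39. Beyond them no peak was listed up to region 179 (chr12:108041661-108041860), 38059 bp from the TSS, with 1.31 in replicate 1 and 2.06 in replicate 2. The next protein-coding gene on that side is Setd3, beyond the edge of the window.

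Inside the gene, 26 regions lay in the body and 14 of them were found in both replicates. Intron 1 (13.3 kb) held 11 of them, intron 2 (23.6 kb) held 2 and intron 3 (48.3 kb) held 10. This counts regions that touched no exon, by their midpoint. The strongest in intron 1 was region 167, 4374 bp inside the outer TSS, with strengths of 5.54 and 7.40. It was the only one of the 10 strongest shared regions of the window that was stronger in replicate 2 by the deposited value. In intron 3, region 152 (chr12:107928061-107928380) had 9.95 and 2.91. It belonged to a run of 6 regions between 8.59 and 20.3 kb from the 3' end, 5 of them in both replicates with strengths of 3.53 to 9.95 in replicate 1 and 1.34 to 2.91 in replicate 2. Another site in intron 3, region 157 (chr12:107964701-107965060), lay close to exon 3 and had 5.63 and 1.64, and all of its 4 and 3 footprints overlapped those of the other replicate.

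Downstream of the gene, the desert of 1 Mb held 118 peaks in replicate 1 and 127 in replicate 2, or 147 merged regions with 80 in both. Chaining regions no more than 10 kb apart, and keeping chains of 5 or more, gave 9 clusters. They held 111 of the 147 regions, or 75.5%, on 244.4 kb, which is 24.4% of the desert. The chaining rule gathers close regions by design, and no shares of other deserts are given here. These shares therefore describe position only. The clusters are numbered from the gene outward. Of the 9, 3 (clusters 1, 6 and 7) had 5 or more regions found in both replicates and 6 had fewer. Chaining only regions of both replicates gave 2 clusters, and the stricter peak list gave 3.

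Clusters 1 and 2 are the nearest to the gene. Cluster 1, 109.8 to 161.4 kb beyond the 3' end (chr12:107748978-107800616), had 16 regions with 17 peaks in replicate 1 and 11 in replicate 2. Most of it overlies Gm15208, a long noncoding gene on the same strand as Bcl11b. Its strongest region by mean percentile was region 128 (chr12:107752641-107752880), with strengths of 3.0 and 1.77, and region 137 over the Gm15208 start had 2.67 and 1.89. Region 135 (chr12:107779321-107780000) was almost level with region 128 by mean percentile (81.5 for each), with strengths of 4.34 and 1.44. Cluster 2 (chr12:107722633-107734836) had 6 regions, and its leading region 124 (chr12:107729381-107729700) overlay an exon of the noncoding gene 4930465M20Rik at 5.69 and 1.67. No peak lay within 500 bp of the 4930465M20Rik start in either replicate.

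Clusters 3 to 5 are small, and weak apart from 1 region. Cluster 3 (chr12:107559193-107574496) had 5 regions, and its strongest shared region by mean percentile, region 112, reached 1.04 and 0.662. Cluster 4 (chr12:107345868-107363860) had 10 regions with 7 and 8 peaks. One of them, region 96 (chr12:107362161-107362440), stood out at 4.82 and 2.49, the ninth strongest shared region of the window. Cluster 5 (chr12:107289328-107314922) had 6 peaks in replicate 1 and 2 in replicate 2, and its strongest shared site, region 82, had 0.504 and 0.420.

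Clusters 6 to 8 hold most of the desert's strength. Cluster 6 (chr12:107183381-107235566) had 13 regions, with 10 peaks in replicate 1 and 12 in replicate 2. Its far edge is region 68 (chr12:107183381-107183600), over the start of the noncoding gene Gm2800, with strengths of 6.22 and 2.22. Cluster 7 (chr12:107116806-107160560) spans 43.8 kb at 749.8 to 793.6 kb beyond the 3' end, which is 843.0 to 886.8 kb from the outer TSS. It held 41 regions, 27 peaks in replicate 1 and 40 in replicate 2, or 61.7 and 91.4 peaks per 100 kb. It alone held 40.4% of the desert's summed strength in replicate 1 and 37.7% in replicate 2, with 94 and 124 footprints.

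Within cluster 7, the near edge is region 66 (chr12:107160021-107160560), which covers the start of Gm16084, a noncoding gene transcribed away from Bcl11b's 3' end on the minus strand. Its strength was 15.8 in replicate 1, the highest of the window there, and 3.74 in replicate 2. Its footprints differed between the animals, with 13 in replicate 1 and 3 in replicate 2, and 1 overlapping pair. Region 38 (chr12:107124201-107124700) had 11.5 and 2.95, and region 52 (chr12:107139081-107139440) had 8.99 and 2.82. In region 52, 6 of 9 footprints in replicate 1 and 6 of 6 in replicate 2 overlapped. Of the 41 regions of cluster 7, 20 were found in both replicates, among them region 62 inside Gm16084 with 5.59 and 2.0 and region 54 with 5.07 and 1.91. The 4 found in replicate 1 alone reached at most 0.738, and the 17 found in replicate 2 alone reached at most 1.07.

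Cluster 8 (chr12:107078397-107090057) had 6 regions only, but it contained region 24, the strongest region of the window by mean percentile. Region 24 (chr12:107086341-107086540) lies 824.0 kb beyond the 3' end, in an intron of the noncoding gene Gm16086, with strengths of 12.8 in replicate 1 and 8.31 in replicate 2. The 8.31 was the highest strength of the window in replicate 2. All 4 of its footprints in each replicate overlapped those of the other. No peak lay at the Gm16086 start itself. Cluster 9 (chr12:107008304-107022380) had 8 regions with region 12 (chr12:107016901-107017120) in front at 2.90 and 1.13.

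Other annotated genes in the desert were mostly closed at their starts. Gm16085, a noncoding gene within cluster 7, had a promoter peak of 2.17 in replicate 1 and 0.933 in replicate 2. The pseudogene Gm17052 had 1.22 and 0.754 at its start, and Gm16087 had 0.338 in replicate 1 alone. The starts of Gm3234, of the pseudogenes Gm5187 and Gm9006 and of the gene model 3110018I06Rik had no peak in either replicate. The model 3110018I06Rik is annotated as protein-coding over 1005 bp without a consensus coding sequence, and it held no peak in its body.

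At an overlap of at least 1 bp, sharing between the animals was close to that of all peaks. Of the window peaks of replicate 1, 111 of 146 (76.0%, 95% Wilson interval 68.5 to 82.2) overlapped a peak of replicate 2, against 75.2% of all peaks of replicate 1. Of the window peaks of replicate 2, 109 of 160 (68.1%, 60.6 to 74.8) overlapped one of replicate 1, against 66.4% of all. These intervals cover counting error only. Each window peak that ranked among the top 25% of all peaks was shared, 42 of 42 and 34 of 34, against 97.2% and 98.8% of all peaks of that class. At strength percentiles 50 to 75, 86% and 76.7% were shared, against 88.4% and 86.9%. At percentiles 25 to 50, 19 of 40 (47.5%) and 25 of 53 (47.2%) were, against 71.4% and 56.1%. Below percentile 25, 7 of 14 (50%) and 4 of 13 (30.8%) were, against 44.1% and 23.9%. At a reciprocal overlap of 50%, 48.6% of the window peaks of replicate 1 were shared (40.7 to 56.7), against 56.8% of all, and 44.4% of those of replicate 2 (36.9 to 52.1), against 51.1% of all. Of the window peaks without a partner, 7 of 35 in replicate 1 held a base of the other replicate's track of bases with a false discovery rate under 0.05 (20%, against 29.0% over all such peaks), and 4 of 51 in replicate 2 did (7.84%, against 9.99%).

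Footprints overlapped between the animals in just over 1 of 3 cases. In replicate 1, 160 of 425 window footprints (37.6%, 33.2 to 42.3) overlapped a footprint of replicate 2, against 50.8% of all footprints. In replicate 2, 162 of 462 (35.1%, 30.9 to 39.5) overlapped one of replicate 1, against 45.5% of all. Footprints of the window are neighbours within the same peaks and libraries, so the intervals do not measure the spread between animals. Of the 100 shared regions, 66 had an overlapping footprint and 4 had all footprints of both replicates overlapping. The median footprint was 9 bp long in replicate 1 and 8 bp in replicate 2, and the longest were 35 and 39 bp. No footprint was listed in 13 of 146 window peaks in replicate 1 and in 33 of 160 in replicate 2. The counts of regions with overlapping footprints and of peaks without a footprint have no share over all chromosomes beside them here. They therefore do not show a trait particular to Bcl11b.

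Strengths of the 100 shared regions ordered alike in the animals. Spearman's rho was 0.861 in the window and 0.829 over all 68724 shared regions, as a description of regions that share their libraries. The ratio of the strengths was not the same everywhere. The median log2 ratio of replicate 1 to replicate 2 was 0.73 in the window (84 of 100 regions stronger in replicate 1, against 61.7% of all shared regions), and 0.26 over all shared regions. The median was 1.15 in the gene body and 0.69 in the desert. Among regions above the median strength in both replicates, the medians were 0.93 in the window and 0.47 over all.

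**Figure D3:**
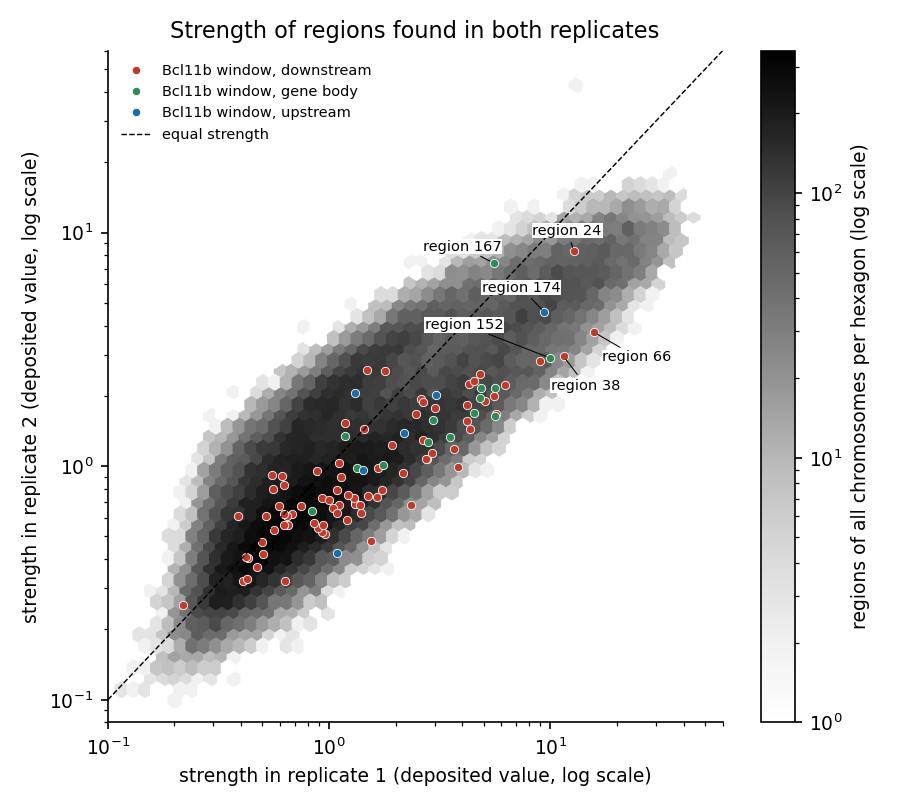
Strength in replicate 2 against replicate 1 (deposited values, both axes log scale) for regions found in both replicates, with the 100 regions of the Bcl11b window as coloured points over all 68724 regions in grey hexagons. Region 167 lies above the line of equal strength and region 24 close to it, while region 66 lies at the lower edge of the cloud.

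Short strings of known factors were searched on both strands in the 100 shared regions, which were wider than all shared regions (median 300 against 240 bp) and of similar GC content (52.1% against 53.2%). A match is a description of letters and no binding site. The E-box strings CAGCTG and CAGGTG, bound by E proteins such as E2A and HEB, were in 64 of 100 window regions (54.2 to 72.7), against 45.6% of all. Per kb of sequence there were 3.04 of them in the window and 2.30 over all regions. The TCF/LEF string CTTTGAT or its variant CTTTGAA, the sites of TCF-1, was in 14 (8.53 to 22.1), against 9.96%, at 0.609 per kb in the window and 0.367 over all regions. All 14 of these regions lay in the desert, where 80 of the 100 shared regions lay. The RUNX strings TGTGGT and TGCGGT were in 36 (27.3 to 45.8), against 29.2%, at 1.22 per kb in both. For RUNX and TCF/LEF the share of all regions lay within the interval of the window. Counting only footprints of either replicate with 5 bp added to each side, E-box strings were in 25 window regions, against 19.2% of all. The TCF/LEF strings were then in 3, against 4.06%, and the RUNX strings in 14, against 12.2%.

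For the other families the shares of regions lay within the intervals too. The ETS string GGAAGT was in 23, against 26.0%. Per kb it numbered 0.783 in the window and 1.08 over all regions. Searched only in footprints, as above, it was in 4 window regions, against 9.82% of all. The GATA string AGATAA was in 11, against 8.93%, the RBPJ string GTGGGAA in 5, against 6.45%, and the Ikaros strings TTGGGAA and CTGGGAA in 13, against 13.4%. Per kb, GATA strings numbered 0.319 against 0.327 over all regions, RBPJ strings 0.145 against 0.226 and Ikaros strings 0.406 against 0.497. RBPJ is the DNA-binding partner of NOTCH, and Ikaros is a lymphoid zinc-finger factor. In the printed sequences, the ETS string lies wholly within the shared footprint bases of region 152, at bases 118 to 123 on the minus strand. In region 52 the RUNX string at bases 80 to 85 has 4 of its 6 bases in capitals. No other string of the families above lies wholly in capitals in the printed sequences. The ETS, RUNX and GATA strings of region 66, the RUNX string of region 167 and the Ikaros strings of regions 167 and 38 have 0. The E-box strings have at most 2 of 6 bases in capitals, and the RBPJ string of region 24 has 2 of 7.

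**Figure D4:**
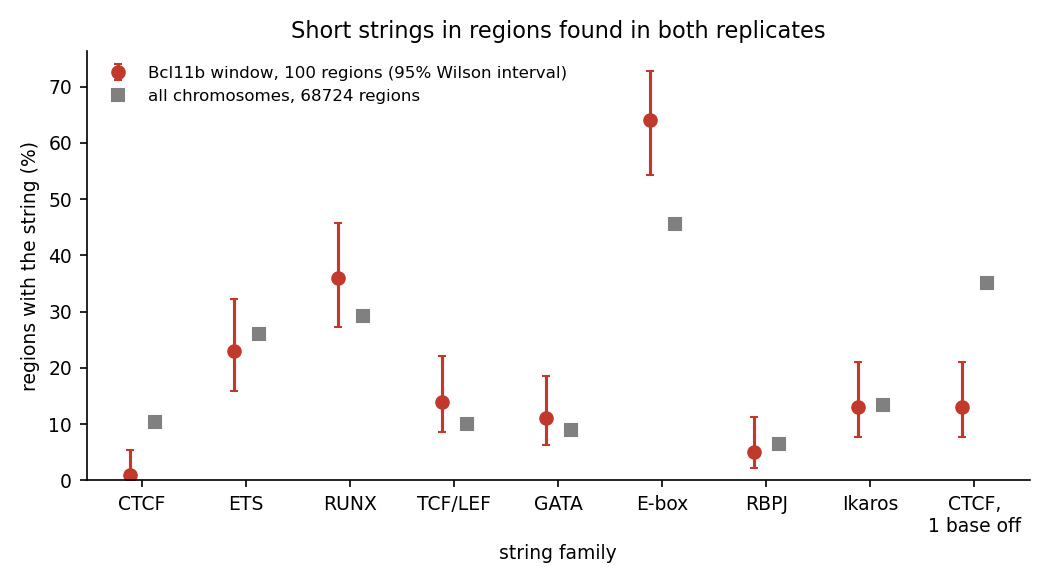
Percent of regions found in both replicates that hold each string, for the Bcl11b window (red points, 95% Wilson interval, 100 regions) and for all chromosomes (grey squares, 68724 regions). The E-box share of the window, 64%, stands above 45.6%, and both CTCF searches stand below their share over all regions.

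Strings of CTCF, the zinc-finger factor at chromatin loop anchors, were searched in the same regions. The CTCF string was in 1 of 100 regions (0.177 to 5.45), against 10.4% of all. With 1 base allowed to differ it was in 13 (7.76 to 21%), against 35.0% of all. Searched only in footprints of either replicate with 5 bp added to each side, it was in 7 of the 100 window regions, against 27.9% of all regions. In 7 of the 13 regions the string overlapped footprints of both replicates. Regions 24 and 167, both among the 4 strongest of the window, were among these 7. In region 24 the near-match covers bases 87 to 98 of the printed sequence, on the plus strand, inside a footprint at positions 107086418 to 107086450 in replicate 1 and 107086419 to 107086451 in replicate 2. In region 167 it covers bases 113 to 124, on the minus strand, inside a footprint at 107998942 to 107998970 in replicate 1 and 107998939 to 107998969 in replicate 2. The near-matches of regions 24 and 167 thus lie on opposite strands, 912.5 kb apart, on the 2 sides of clusters 1 to 7. Of the other near-matches overlapped by footprints of both replicates, those of regions 38 and 152 (plus strand) and 157 (minus strand) lie between them. Those of regions 175 (minus strand) and 179 (plus strand) lie upstream of the gene. Regions 24 and 167 were set side by side for their strength ranks, and pairing between sites was not tested.

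The strength ratios at these strings were as follows. The log2 ratio of replicate 1 to replicate 2 was 0.62 in region 24 and -0.42 in region 167, against a window median of 0.73. Over all shared regions the median was -0.71 in those with the exact CTCF string and 0.35 in those without. Regions 24 and 167 hold near-matches only. No median over all near-match regions is given here, so these medians cannot be set against them. In region 92, the only shared window region with the exact string, the ratio was 0.08. Region 179, upstream of the gene, had a near-match on the plus strand within footprints of both replicates and a ratio of -0.65. Of the 13 near-match regions, 7 were above the window median. Of the 7 whose string overlapped footprints of both replicates, 3 were above it and 4 were below. The 3 above were region 38 at 1.96, region 157 at 1.78 and region 152 at 1.77. In regions 152, 157 and 175 footprints covered only part of the string in at least 1 replicate. In region 38, 10 of the 12 bases of the string lay in footprints of both replicates.

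Set against other gene deserts, that of Bcl11b was among the densest. The whole gap between Vrk1 and Bcl11b is 1833 kb of sequenced DNA with 8.29 peaks per 100 kb in replicate 1 and 9.22 in replicate 2, a mean of 8.76 ± 0.66 (SD, n = 2). The median of 679 gaps of 500 kb or more between protein-coding genes was 0.575. At least the density of the Bcl11b gap was found in 7 of 679, the gap itself included (1.03%). Above it were the gaps Satb1 to Kcnh8 (13.5), Sdk2 to Rpl38 (10.5), Olfr1507 to Dad1 (10.4), which holds the gene segments of the T cell receptor alpha chain, and Foxo1 to Cog6 (9.94). The other two gaps above it, Mid1 to Asmt and 4930467E23Rik to Gm15319, had only 16.9 and 384.1 kb of sequenced DNA.

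**Figure D5:**
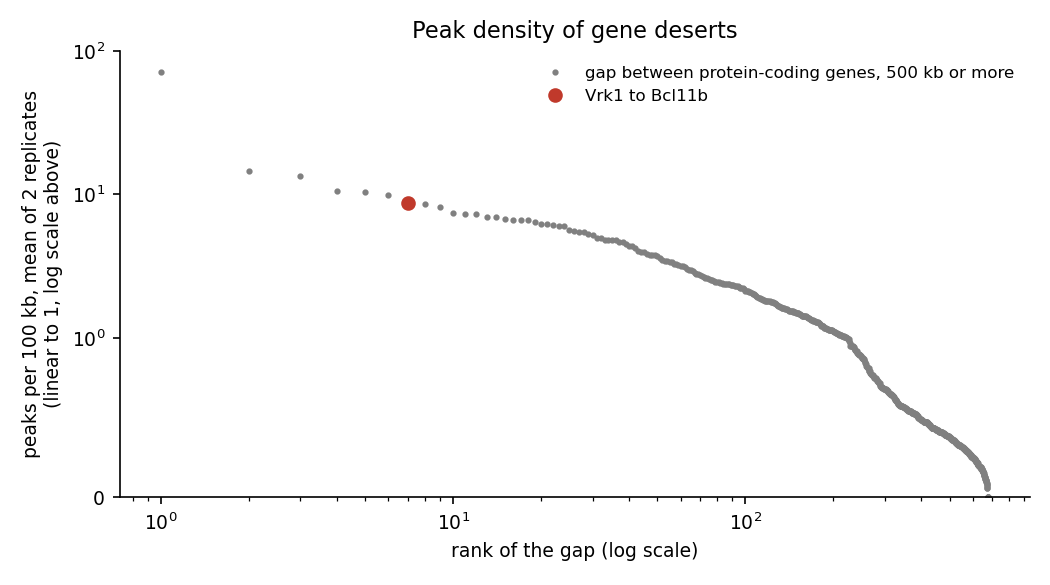
Peaks per 100 kb (mean of 2 replicates, linear to 1 and log scale above) of 679 gaps between protein-coding genes, against the rank of the gap (log scale). The gap from Vrk1 to Bcl11b, in red, is seventh at 8.76, against a median of 0.575.

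The genes with the most similar peak profile were found by the Euclidean distance of log2(peaks per 100 kb + 1) over 12 zones and 2 replicates, that is 24 values, among 655 genes with no other protein-coding gene with a consensus coding sequence in the 500 kb beyond their 3' end. The closest were Cog6 at 3.57, Ankrd50 at 5.11, Setd4 at 5.30, Mn1 at 5.37 and Cd83 at 5.56, and the median over all candidates was 14.6. By peaks in the 1 Mb downstream, Bcl11b was second after Dad1, whose 1 Mb held 144 and 130. The median candidate had 6 and 8.

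The promoters of genes linked to T lineage commitment were examined beside Bcl11b itself. Of 38 such genes, 32 (84.2%) were open at the promoter in each replicate, against 58.6% of all 21701 protein-coding genes. All 9 genes listed as inducers of Bcl11b were open, among them Notch1 (strengths 6.01 and 4.47), Gata3 (5.63 and 2.63), Tcf7, which encodes TCF-1 (4.03 and 2.25), and Runx1 (7.79 and 2.61). All 12 T cell genes were open, such as Cd3g (18.5 and 4.93) and Lck (17.3 and 4.99), a receptor subunit and its kinase. Of 10 progenitor genes that are shut during commitment, 7 were open, mostly weakly: Lmo2 had 0.410 and 0.415, Lyl1 0.925 and 0.927, and Kit, a growth factor receptor, had 5.75 and 3.73. Spi1, which encodes PU.1, and Gfi1b had no promoter peak in either replicate, and Erg had 0.236 in replicate 2 alone. Of 7 genes of natural killer and innate lymphoid cells, 4 were open. Id2, an inhibitor of E proteins, had 14.3 and 5.60 and Zbtb16 had 0.826 and 0.530, while Tyrobp, Klrb1c and Ncr1 had no promoter peak.

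The thymus label was checked against marker promoters. All 10 thymocyte markers were open in both replicates, and none of 3 erythroid and none of 3 hepatocyte markers was. Markers of other cells that a thymus holds were open in part. These were the B cell marker Ebf1, 2 of 4 myeloid markers (Itgam and Lyz2) and 2 of 4 epithelial markers (Epcam and Ccl25). Over all 21701 protein-coding genes, 58.6% were open in both replicates. Strengths were 9.67 and 8.28 for Ccl25 and 4.52 and 4.31 for Ebf1, beside 9.40 and 4.55 for Bcl11b. They were 1.08 and 0.835 for Itgam, 0.665 and 0.328 for Lyz2, and 1.26 and 0.714 for Epcam. The B cell markers Pax5 and Cd79a and the epithelial markers Foxn1 and Psmb11 had no promoter peak in either replicate. The part of other cell types in the Bcl11b peaks was not tested.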

How the data were processed

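DNase-seq peaks, footprints and tracks of thymus from 2 mice were used as deposited. Per the file listing deposited with each sample, the authors called peaks for every sample separately on mm10, without pooling, and derived footprints from the alignments and the track. The sources used here give no aligner, caller, settings or treatment of CAST alleles. The signal column of the deposited peak lists, called strength, is the authors' value. The p-value column of the deposited track is a false discovery rate per run of bases, listed under 0.05, and that of the footprints is constant. The longer of 2 deposited peak lists was used, and the shorter one as an alternative.

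Peaks counted by midpoint on chromosomes 1 to 19, X and Y were analysed with Python 3.11.15, pandas 2.3.3, SciPy 1.17.1 and bedtools 2.31.1, on GENCODE M21 and GRCm38.p6, after tests on simulated intervals and strings. Sharing meant an overlap of at least 1 bp. A promoter counted as open with a peak no farther than 500 bp from a TSS. Named genes were Bcl11b, the genes in its window, 5 genes of like profile and 38 commitment genes. Named peaks were the 10 strongest shared regions, those at starts and the strongest of each cluster; others named were chosen after their values were seen. The planned gap rule took all protein-coding genes, but the short model 3110018I06Rik splits the desert, so genes with a consensus coding sequence (CCDS) were used. A further B cell marker is not reported here. The members and lists were chosen with earlier results of these data known. No test was made: there is 1 group, with 2 replicates.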

Additional observations from a re-analysis of the deposited data

How the results depend on the processing

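Of 45 recomputed values, 31 stayed within 1.5 times the count or within the error and 14 moved. With the shorter, stricter peak list the mean number of window peaks was 99.5 in place of 153, the footprints within such peaks 282.5 in place of 443.5, their shared percent 45.0 in place of 36.4, the downstream clusters 3 in place of 9, and the percent of shared regions with the CTCF string 0. Window peaks numbered 71 with 500 kb downstream and 67.5 down to the model 3110018I06Rik. A reciprocal overlap of 50% left 46.5% of peaks and 22.6% of footprints shared. By replicate, this was 23.5% and 21.6% of window footprints, against 35.8% and 31.1% of all footprints. Clusters numbered 15 with 3 or more regions and 2 from regions of both replicates only. Searching footprints alone gave 4% of regions for the ETS string (9.82% of all regions) and 0% for the CTCF string (9.89% of all), and allowing 1 base off the CTCF string gave 13%, an alternative chosen after seeing the data. Without 1 replicate, window peaks ranged from 146 to 160, shared peaks from 68.1 to 76.0%, shared footprints from 35.1 to 37.6%, footprints from 425 to 462, clusters from 7 to 9, the ETS string from 17.8 to 20% and the CTCF string from 0.625 to 0.685%. The percent of deserts as dense was between 0.714 and 1.18 in every alternative run, those chosen after seeing the data included. The cause of the moves was not tested, apart from fewer peaks in the stricter list and narrower stretches searched. No paired analysis was possible because there is 1 group. Depth is unknown, so a peak missing in 1 replicate may be under its detection limit.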
